A study of Homo sapiens with 18 samples.

Results

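MC4R and CCBE1 lie close together in band 18q21 on the long arm of chromosome 18, and both were much lower in PNT1A cells irradiated in the beam axis than in controls. They were examined here together with 7 neighbours in the same band, ALPK2, MALT1, SEC11C, GRP, LMAN1, CDH20 and RNF152, to ask whether the fall in the axis was shared along the chromosome. These 9 genes were taken from 22394 genes that had a probe set annotated to 1 gene symbol, and each of the 9 had a single such probe set. MC4R and CCBE1 were picked for their fall in the axis, so their axis values are given as a description without a test, while the 7 neighbours were picked by chromosome band and were tested.

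PNT1A is an established human cell line, derived from normal prostate epithelium and made immortal with SV40. Flasks of these cells were placed in a humanoid phantom during a stereotactic prostate plan delivered by volumetric modulated arc therapy. Expression was measured on 18 arrays in 6 groups of 3. The groups were cells in the axis (the prostate location), which received 70 Gy as 7 consecutive deliveries of 10 Gy, cells at the intestine, lung, thyroid and brain locations 15, 35, 52 and 74 cm from the axial plane, and controls. The labels call the controls untreated, and the protocol describes sham handling without radiation. All cells were replated after the procedure and cultured for 24 h before RNA was isolated. No cells of a real intestine, lung, thyroid or brain were used: every group held the same line. The study's methods describe the 3 arrays of a group as biological repeats, and the labels do not say whether each came from an irradiation of its own, so p-values measure the spread between these samples.

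MC4R is a G protein-coupled receptor best known in hypothalamic neurons. There it is activated by melanocortin peptides cut from POMC and opposed by AGRP, and it signals through cyclic AMP to restrain food intake. CCBE1 is a secreted extracellular matrix protein that helps the protease ADAMTS3 to cleave and activate VEGFC, the growth factor that drives lymphatic vessels through FLT4. The neighbours have unrelated tasks: LMAN1 carries glycoproteins out of the endoplasmic reticulum, SEC11C is a catalytic subunit of the signal peptidase, GRP is a bombesin-like peptide, MALT1 is the protease of the CARD-BCL10-MALT1 complex, CDH20 is a type II cadherin, RNF152 is a lysosomal ubiquitin ligase that restrains mTORC1, and ALPK2 is an alpha kinase.

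In the RefSeq annotation of GRCh38.p14, the order of measured genes from one end of the window to the other was ALPK2, MALT1, ZNF532, OACYLP, SEC11C, GRP, RAX, CPLX4, LMAN1, CCBE1, PMAIP1, MC4R, CDH20 and RNF152. These 14 were the measured genes among 59 annotated in the window, and they included all 13 protein-coding genes. PMAIP1, which encodes the p53-induced BH3-only protein NOXA, lies between CCBE1 and MC4R. It was not among the 9 genes and is described with them because of its place.

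The promoters of both genes that fell are shown first, with those of PMAIP1, the gene between them, and LMAN1, the measured gene next to CCBE1 on its other side. Each is 300 bases, from 250 before to 50 after the annotated start, 5' to 3' on the gene's own strand, from RefSeq on GRCh38.p14, with every CpG in capitals. They are MC4R at chr18:60372726-60373025 (minus strand), CCBE1 at chr18:59697374-59697673 (minus strand), PMAIP1 at chr18:59899746-59900045 (plus strand) and LMAN1 at chr18:59359216-59359515 (minus strand).
MC4R: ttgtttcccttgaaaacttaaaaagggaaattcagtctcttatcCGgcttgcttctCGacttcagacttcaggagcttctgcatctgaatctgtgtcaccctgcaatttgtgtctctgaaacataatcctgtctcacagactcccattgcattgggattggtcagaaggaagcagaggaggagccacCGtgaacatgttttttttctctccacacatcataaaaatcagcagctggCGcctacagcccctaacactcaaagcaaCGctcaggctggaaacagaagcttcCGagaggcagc
CCBE1: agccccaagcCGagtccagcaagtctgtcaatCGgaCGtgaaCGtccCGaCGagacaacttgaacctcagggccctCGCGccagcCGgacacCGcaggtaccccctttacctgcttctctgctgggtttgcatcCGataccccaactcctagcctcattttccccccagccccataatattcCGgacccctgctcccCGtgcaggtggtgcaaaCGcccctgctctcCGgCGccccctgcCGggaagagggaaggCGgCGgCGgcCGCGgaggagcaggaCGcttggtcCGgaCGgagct
PMAIP1: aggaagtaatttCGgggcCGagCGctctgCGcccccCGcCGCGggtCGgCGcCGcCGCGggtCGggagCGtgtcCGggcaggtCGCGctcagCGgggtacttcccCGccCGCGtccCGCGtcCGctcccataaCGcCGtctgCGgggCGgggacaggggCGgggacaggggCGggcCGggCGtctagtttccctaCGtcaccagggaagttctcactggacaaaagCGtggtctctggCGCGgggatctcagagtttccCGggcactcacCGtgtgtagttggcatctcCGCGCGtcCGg
LMAN1: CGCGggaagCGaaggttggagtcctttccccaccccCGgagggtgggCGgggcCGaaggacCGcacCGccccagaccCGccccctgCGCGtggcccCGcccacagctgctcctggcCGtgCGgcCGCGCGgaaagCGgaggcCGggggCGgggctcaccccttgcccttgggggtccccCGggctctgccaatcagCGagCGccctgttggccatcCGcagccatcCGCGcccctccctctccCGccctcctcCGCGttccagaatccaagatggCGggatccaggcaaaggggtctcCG

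The MC4R and CCBE1 promoters were unlike in base composition. The MC4R promoter held 6 CpG and 47.0% G or C, whereas the CCBE1 promoter held 25 CpG and 65.3%. Over the 35116 promoters of the table the medians were 14 CpG and 58.7%. PMAIP1 held 42 CpG and LMAN1 held 31. Among the other neighbours the count was 33 for MALT1, 27 for GRP, 25 for SEC11C, 13 for CDH20 and 7 for ALPK2, and 8 of the 9 genes were matched in the table.

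The promoters of the falling pair had 1 searched motif in common. Both strands were searched for the CCAAT box (CCAAT), the TATA box (TATAAA), the GC box (GGGCGG), the E-box (CANNTG), the AP-1 site (TGANTCA), the CHR element (TTTGAA) and the p53 half-site. The shared motif was the E-box, with 2 copies in MC4R and 1 in CCBE1, and 68.7% of all promoters held one. MC4R also had 2 CCAAT boxes (in 34.6% of promoters) and 1 p53 half-site (in 6.63%), and CCBE1 had neither. Neither had a GC box (in 45.0%), of which LMAN1 had 6 and PMAIP1 had 4, nor a TATA box, AP-1 site or CHR element (in 11.5%, 7.71% and 15.2%). GC boxes contain a CpG, so these counts overlap. A match is a description of the letters and shows no binding.

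MC4R was low in each axis array and near its control level in all others. The RMA values, on the log2 scale, were 7.79, 7.66 and 7.57 in controls and 4.06, 3.93 and 3.98 in the axis. They were 7.89, 7.78 and 7.73 at the intestine, 7.81, 7.59 and 7.77 at the lung, 7.71, 7.80 and 7.62 at the thyroid, and 7.80, 7.81 and 7.68 at the brain. The 15 arrays outside the axis therefore lay between 7.57 and 7.89, and the 3 axis arrays lay 3.51 log2 units or more below them. The axis minus control difference was -3.69 (SE 0.083), a fold change of -12.9 where the sign marks a fall, and the difference from the mean of the 4 peripheral locations was -3.76 (SE 0.066). Both differences share the axis arrays and belong to the contrast the gene was chosen by. The deposited values carry no detection call, and RMA compresses differences between weak signals.

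CCBE1 showed the same separation with a wider spread in the axis. Its log2 values were 7.64, 7.67 and 7.60 in controls and 5.51, 4.94 and 5.14 in the axis. They were 7.77, 7.57 and 7.36 at the intestine, 7.42, 7.66 and 7.51 at the lung, 7.50, 7.49 and 7.55 at the thyroid, and 7.73, 7.76 and 7.55 at the brain. No axis array came within 1.85 log2 units of any other array. The SD of the 3 axis arrays was 0.29, against 0.035 in controls. The axis minus control difference was -2.44 (SE 0.12), a fold change of -5.42, and that from the peripheral mean was -2.38 (SE 0.096). In these bulk samples, fewer cells that express a gene and less RNA of it per cell cannot be told apart.

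**Figure D1:**
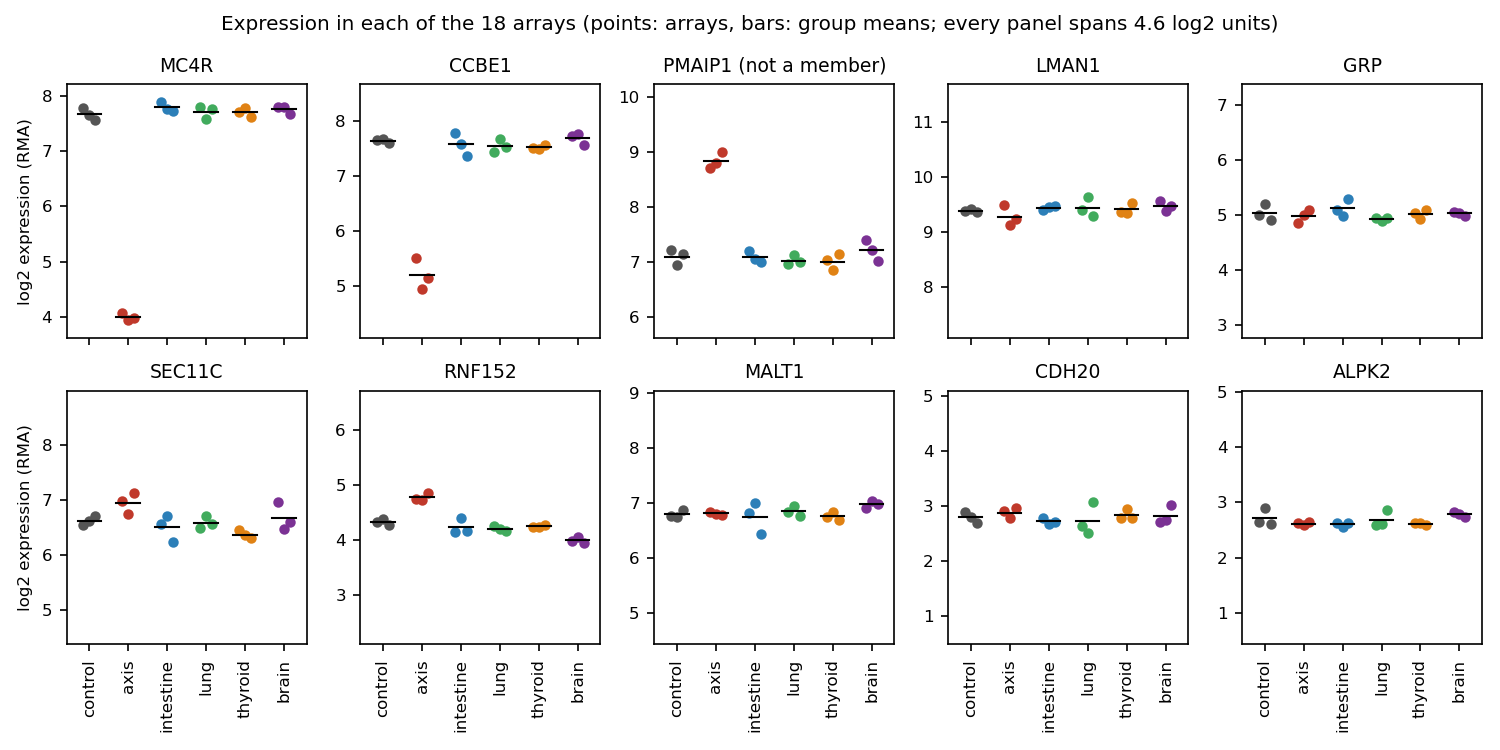
Log2 RMA expression of the 9 genes and PMAIP1 in every array, with points for arrays and bars for group means, in the 6 groups on the horizontal axis. Axis arrays of MC4R (3.93 to 4.06) and CCBE1 (4.94 to 5.51) lie far below all others, those of RNF152 (4.72 to 4.86) and PMAIP1 (8.71 to 8.99) lie above all others, and those of the remaining genes overlap with other groups.

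None of the 7 neighbours was called in the axis against controls at an adjusted p under 0.05 (limma, Benjamini-Hochberg over all genes) and a fold change above 1.5, a rule that called 7.0% of all genes, 4.39% as higher and 2.60% as lower. Without the adjustment, 2 of the 7 had a limma p under 0.05, SEC11C and RNF152, and both were higher in the axis. The share of all genes at that unadjusted level was not counted. Even at an adjusted p under 0.05 with no fold threshold, 11.2% of all genes were higher and 9.18% lower, so the unadjusted level is passed by many genes. The room to fall differed between the neighbours, counted down to 1.78, the lowest value of any gene on any array. That value is not a background level for these probe sets, so each room is an upper limit. By that count LMAN1, MALT1 and SEC11C, with control means of 9.39, 6.80 and 6.63, had room for a fall as large as that of MC4R. The lowest bound of their 95% intervals was -0.32, for LMAN1. GRP at 5.03 and RNF152 at 4.32 had room at most for a fall like that of CCBE1, and CDH20 and ALPK2 had room for neither. The array medians were 4.07 to 4.22. After a fall like that of MC4R, LMAN1 would have stayed above them, but MALT1 and SEC11C would have ended below. All of such a fall may therefore not have been measurable in MALT1 and SEC11C. In GRP the same holds for a fall like that of CCBE1. RNF152 already lay close to these medians, so a fall like that of CCBE1 may not have been measurable in it.

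LMAN1, whose product is the ERGIC-53 cargo receptor, is the measured neighbour directly beside CCBE1. Its log2 values were 9.39, 9.42 and 9.37 in controls and 9.49, 9.12 and 9.24 in the axis, and across the 12 peripheral arrays they lay between 9.29 and 9.64. The axis arrays fell on both sides of the controls. The difference was -0.11 (95% interval -0.32 to 0.099, adjusted p = 0.564), and against the peripheral mean it was -0.16 (adjusted p = 0.160), both by limma.

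GRP, the gastrin-releasing peptide, and MALT1 lie further along on the same side. GRP was at 5.0, 5.19 and 4.91 in controls and at 4.85, 5.01 and 5.09 in the axis on the log2 scale, and its difference was -0.052 (95% interval -0.24 to 0.14, adjusted p = 0.811 by limma). MALT1 was at 6.76, 6.75 and 6.88 in controls and at 6.85, 6.80 and 6.79 in the axis. Its axis arrays lay within the range of the controls, and the difference was 0.017 (95% interval -0.21 to 0.24, adjusted p = 0.954 by limma). Neither interval reached a 1.5-fold change in either direction.

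CDH20 and ALPK2 had low values on all 18 arrays. CDH20, the first measured gene beyond MC4R, was at 2.88, 2.80 and 2.69 in controls and at 2.90, 2.77 and 2.95 in the axis. ALPK2 was at 2.64, 2.90 and 2.61 in controls and at 2.62, 2.59 and 2.64 in the axis. The groups overlapped for both genes. Their differences were 0.083 (95% interval -0.17 to 0.33, adjusted p = 0.750) and -0.10 (95% interval -0.28 to 0.076, adjusted p = 0.519) by limma. A fall of the size seen for MC4R or CCBE1 could not have been measured in either gene.

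SEC11C leaned the other way. Its log2 values were 6.55, 6.61 and 6.72 in controls and 6.99, 6.75 and 7.13 in the axis, so the axis arrays lay above all controls. The difference of 0.33 (SE 0.13, 95% interval 0.053 to 0.60) had an adjusted p of 0.0927 by limma. Against the peripheral mean it was 0.42 (SE 0.10, adjusted p = 0.00427 by limma), which is below a 1.5-fold change. Outside the axis, 1 brain array reached the axis values, at 6.96.

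RNF152, at the far end of the window, was higher in the axis. It was at 4.32, 4.38 and 4.27 in controls and at 4.74, 4.72 and 4.86 in the axis. Every axis array was above all 15 others, of which the highest was 4.39. The difference of 0.45 (SE 0.075, 95% interval 0.29 to 0.61, adjusted p = 1.76e-04 by limma) was a 1.37-fold change and so was not called. Against the peripheral mean the difference was 0.61 (SE 0.059, adjusted p = 1.84e-07 by limma), 1.52-fold, and RNF152 was the 1 neighbour of 7 called there, where 7.12% of all genes were called (4.85% higher and 2.27% lower). That call rests on the fold threshold: without axis replicate 3 the difference was 0.57 and no neighbour was called.

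PMAIP1 rose between the 2 genes that fell. Its log2 values were 7.21, 6.94 and 7.16 in controls and 8.71, 8.80 and 8.99 in the axis, with all arrays outside the axis between 6.85 and 7.40. No axis array overlapped with any other group. The difference was 1.73 (SE 0.11, adjusted p = 9.76e-10 by limma), or 3.33-fold, and against the peripheral mean it was 1.75 (SE 0.086, adjusted p = 1.62e-11 by limma).

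Counted over the whole window from ALPK2 to RNF152, 3 of 14 genes were called, PMAIP1 higher and CCBE1 and MC4R lower. Leaving out CCBE1 and MC4R, for which the window was chosen, 1 of 12 was called (8.33%, against 7.0% of all genes). The other window genes were not called: ZNF532, a zinc finger gene, had a difference of 0.15 (adjusted p = 0.251), RAX, a homeobox gene of the developing eye, 0.27 (adjusted p = 0.444), CPLX4, a complexin of retinal synapses, 0.015 (adjusted p = 0.942) and the pseudogene OACYLP 0.025 (adjusted p = 0.913), all by limma. The median difference of the 12 was 0.054, beside 0.0070 over all genes.

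**Figure D2:**
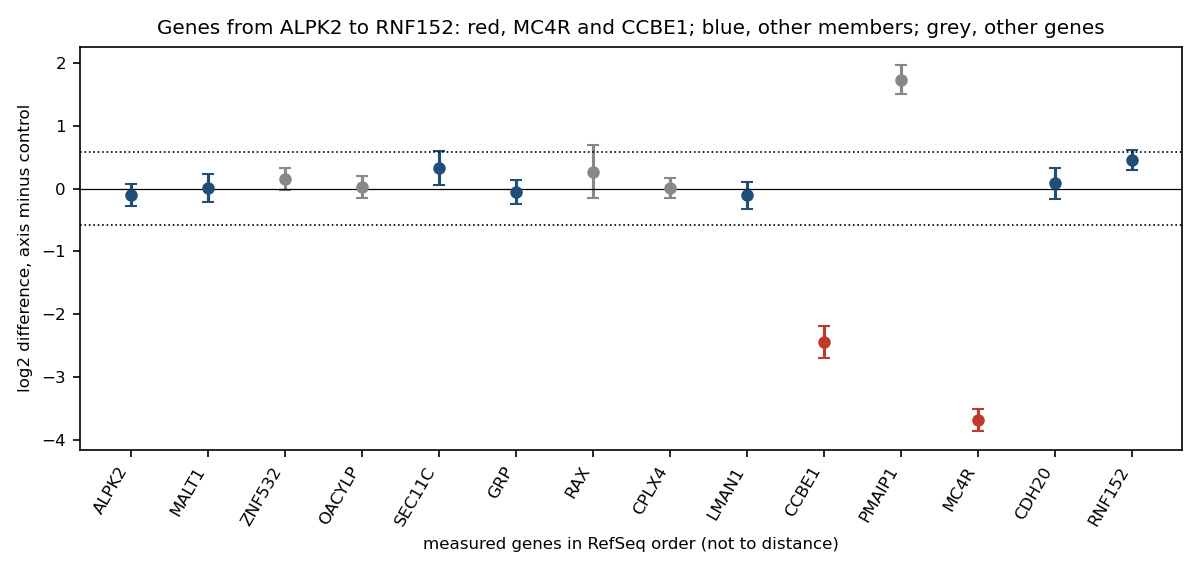
Log2 difference of the axis from controls, with 95% confidence intervals from limma, for the 14 measured genes in chromosome order, spaced evenly. MC4R (-3.69) and CCBE1 (-2.44) stand on either side of PMAIP1 (1.73), while LMAN1 (-0.11) and CDH20 (0.083), the next genes on the outer sides, have intervals that include 0.

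A wider span, LOXHD1 to SERPINB10, covered most of 18q21 with 91 measured genes. In it 4 genes were called higher and 5 lower (9.89%), and without MC4R and CCBE1 4 were higher and 3 lower of 89 (7.87%). Besides MC4R and CCBE1, the gene with the lowest difference was RAB27B, a small GTPase of vesicle secretion. RAB27B had log2 values of 7.50, 7.29 and 7.62 in controls and 4.77, 4.41 and 4.15 in the axis, with no overlap, and its difference was -3.03 (SE 0.12, adjusted p = 2.50e-12 by limma). It lay 31 measured genes from MC4R.

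The 3 highest called genes of that span were SERPINB5, PMAIP1 and KDSR. SERPINB5, which encodes the serpin maspin of epithelial cells, was at 4.52, 4.36 and 4.56 in controls and at 6.52, 6.63 and 6.71 in the axis (difference 2.14, SE 0.090, adjusted p = 5.02e-12 by limma). KDSR, a reductase of sphingolipid synthesis, differed by 0.83. The remaining called genes, named after their values were seen, were SKA1 among the higher and TCF4 and CTIF among the lower. CCBE1, PMAIP1 and MC4R were the only called genes directly next to each other, and CCBE1 and MC4R had been picked for their fall. RAB27B and TCF4, both called lower, had 1 measured gene between them, CCDC68. CCDC68 was also lower, by -0.53 (adjusted p = 0.0198 by limma), a fold change of -1.44 that is below the threshold. In all, 82 of 91 genes were not called. Over the measured genes of chromosome 18 without MC4R and CCBE1, 18 of 324 were higher and 12 lower (9.26%, against 7.0% of all genes).

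**Figure D3:**
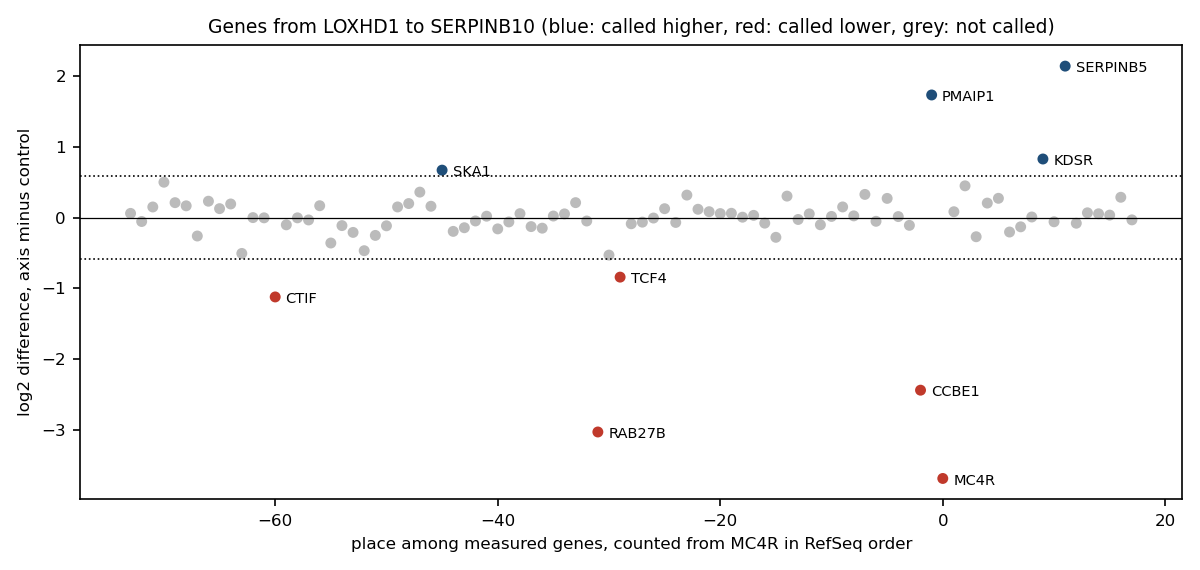
Log2 difference of the axis from controls for the 91 measured genes from LOXHD1 to SERPINB10, by place counted from MC4R in RefSeq order, with dotted lines at a 1.5-fold change. The 5 genes called lower (red) and 4 called higher (blue) lie among genes that were not called (grey), with CCBE1, PMAIP1 and MC4R directly next to each other, and MC4R (-3.69) and RAB27B (-3.03) are the lowest.

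Outside the axis, no difference in the 9 genes was detectable under the call rule. In each of the 4 peripheral locations 0 of 9 genes were called against controls by limma, and the share called among all genes was 0.00% in each. At an unadjusted p under 0.05, RNF152 at the brain was the 1 gene of 9, and the other 3 locations had 0 of 9. Over all genes 3.58% passed that unadjusted level at the brain, 3.23% at the intestine, 3.63% at the lung and 4.02% at the thyroid.

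For MC4R, the 95% interval of the difference from controls was -0.050 to 0.30 at the intestine, -0.13 to 0.22 at the lung, -0.14 to 0.21 at the thyroid and -0.088 to 0.26 at the brain. Each interval includes 0 and none extends past 0.30, beside -3.69 in the axis. By group mean, MC4R ran from the intestine through brain, lung and thyroid to control, and neighbouring groups in that order overlapped. The gap to the axis was the only one without overlap.

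CCBE1 had the order brain, control, intestine, lung and thyroid, again with overlap between each neighbouring pair, and then the axis. Its largest peripheral difference was -0.12. For LMAN1, GRP, SEC11C, MALT1, CDH20 and ALPK2 every neighbouring pair of the 6 groups overlapped. The largest peripheral difference of SEC11C was at the thyroid, -0.25 (95% interval -0.53 to 0.021), where its values were 6.45, 6.37 and 6.31.

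RNF152 was the exception at both ends of its order. The brain arrays were at 3.97, 4.04 and 3.95, below each of the other 15 arrays, while the axis arrays were above all others. The share of all genes with a group set apart in this way was not counted. The brain difference was -0.34 (95% interval -0.49 to -0.18), with an adjusted p of 1.00 by limma over all genes, so it did not pass the correction although all 3 arrays showed its direction.

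**Figure D4:**
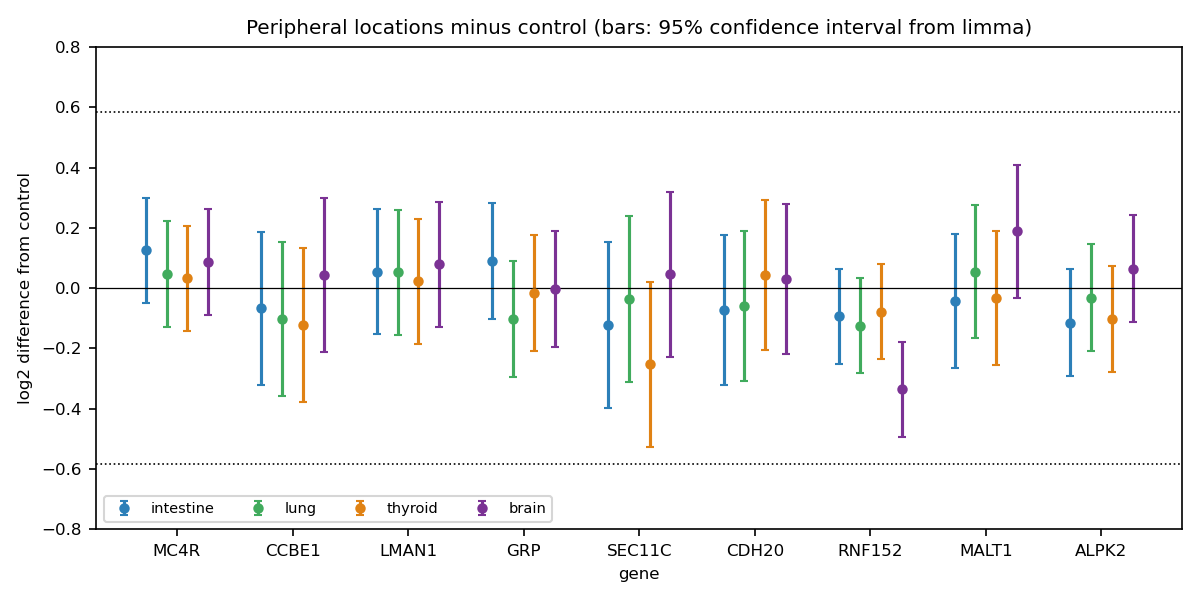
Log2 difference of each peripheral location from controls, with 95% confidence intervals, for the 9 genes. Differences run from -0.34 (RNF152 at the brain) upwards, and no gene was called at any location.

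Across the 15 arrays outside the axis, MC4R did not track its neighbours to a degree that passed a test. MC4R varied little over these arrays (SD 0.093, group means spanning 0.12), so the correlations cannot decide whether the genes share regulation. Of the 8 relations computed, that with CCBE1 had Pearson's r = 0.16 (permutation p = 0.560) and Spearman's rho = 0.18 (permutation p = 0.518), and r was 0.35 without the 2 arrays farthest from the MC4R median. LMAN1 had the lowest r, -0.37 (permutation p = 0.177), with rho = -0.24 (permutation p = 0.388) and r = -0.31 without those 2 arrays. The other 6 values of r lay between -0.20 and 0.21. After Benjamini-Hochberg adjustment all 8 Pearson p-values were 0.883 and the Spearman p-values lay between 0.690 and 0.861. After each group mean was subtracted, r with LMAN1 was -0.58 (permutation p = 0.0211, adjusted p = 0.169), and r with CCBE1 was 0.20 (adjusted p = 0.913). Subtracting group means ties the values within a group, which the permutation did not allow for, so these p-values can be too small. With each array centred on its median instead, r with LMAN1 turned to 0.051 and r with CCBE1 was 0.43 (adjusted p = 0.855 and 0.788).

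Over all 18 arrays, many genes followed the pattern of MC4R more closely than CCBE1 did. Among 633 genes whose group means spanned at least 1 log2 unit, the 5 with the highest Pearson r to MC4R were RAB31, MYOF, EXT1, THBS1 and LAMB1 (r = 0.993 to 0.995), and CCBE1 ranked 18 (r = 0.988). RAB31 is a small GTPase of vesicle transport, MYOF a membrane repair protein, EXT1 a heparan sulphate polymerase, THBS1 the matrix protein thrombospondin and LAMB1 a laminin chain. For CCBE1 the leading genes were CRYBG1 (r = 0.991), the growth factor receptor PDGFRB (r = 0.990) and the semaphorin and VEGF co-receptor NRP1 (r = 0.990), and MC4R ranked 6. These r values are a description: every point shares the contrast of 3 axis arrays with 15 others, and within the 15 the r of RAB31 with MC4R was 0.61 and that of EXT1 was 0.045.

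Partners of MC4R were mostly not called in the axis. Of 20 measured genes of the melanocortin system, 1 was called higher and 1 lower, MC4R itself, where 4.39% of all genes were called higher and 2.60% lower. The median difference was 0.039, beside 0.0070 over all genes. CPE, the carboxypeptidase that trims peptide hormones, was higher by 1.08 (SE 0.10, adjusted p = 2.67e-07 by limma), 2.11-fold. The precursor POMC (0.096), the antagonist AGRP (0.036), the sister receptor MC3R (0.041) and the accessory protein MRAP2 (-0.015) had adjusted p-values of 0.600 or more by limma. Their control means were 3.00, 3.52, 3.21 and 2.58, below the array medians of 4.07 to 4.22. A fall in these genes may therefore not have been measurable. MC5R, another sister receptor, was at 3.26 ± 0.12 (SD, n = 3) in controls and 3.79 ± 0.17 in the axis, below the fold threshold.

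Of the 20 genes measured beside CCBE1 in the list of VEGFC activation and lymphatic growth, 3 were called lower and 0 higher, where 2.60% of all genes were called lower. The median of the list with CCBE1 was -0.0012. FAT4, an atypical cadherin that is, like CCBE1, mutated in hereditary lymphoedema, was at 6.30 ± 0.075 (SD, n = 3) in controls and 4.21 ± 0.14 in the axis, a difference of -2.09 (SE 0.12, adjusted p = 2.11e-10 by limma). NRP1 went from 7.18 ± 0.086 to 5.49 ± 0.047, a difference of -1.69 (SE 0.090, adjusted p = 9.28e-11 by limma). VEGFC itself went from 6.62 ± 0.073 to 5.85 ± 0.19, a difference of -0.77 (SE 0.11, adjusted p = 3.95e-05 by limma). The protease ADAMTS3 (-0.0012) and the receptor FLT4 (0.12) were not called, with controls at 2.86 and 3.52.

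In the gene groups around the neighbours, between 0 and 3 genes of a list were called, where 4.39% of all genes were called higher and 2.60% lower. In the CARD-BCL10-MALT1 list 3 of 19 genes were called higher and 0 lower: RELB, an NF-kappa B subunit that MALT1 cleaves (1.75, adjusted p = 1.32e-09), and the deubiquitinases CYLD (1.01, adjusted p = 2.44e-07) and TNFAIP3 (0.99, adjusted p = 4.47e-07), all by limma. In the mTORC1 list that holds RNF152, 2 of 26 were called higher, the p53-induced sestrins SESN2 (2.51, adjusted p = 2.07e-12) and SESN1 (2.14, adjusted p = 1.54e-10 by limma). Of 13 type II cadherins, CDH10 was called higher, from 4.22 ± 0.12 (SD, n = 3) to 7.03 ± 0.052 (difference 2.81, SE 0.080, adjusted p = 1.91e-14 by limma), while its relative CDH20 was not.

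GRPR, the receptor of GRP, was the 1 called gene of 5 in the bombesin list, with a difference of -0.67 (SE 0.14, adjusted p = 0.00154 by limma). No gene was called among 29 of COPII export and cargo receptors around LMAN1, 17 of the signal peptidase and translocon around SEC11C and 5 alpha kinases around ALPK2. At an adjusted p under 0.05 with no fold threshold, 9 of the 29 COPII genes were lower and 0 higher, where 9.18% of all genes were lower and 11.2% higher. At that level the VEGFC list had 6 lower and 2 higher, melanocortin 3 and 2, signal peptidase 3 and 1, and bombesin 1 and 0. The mTORC1 list had 2 lower and 6 higher, CARD-BCL10-MALT1 1 and 4, cadherins 0 and 2, and alpha kinases 1 and 2. LMAN1's partner MCFD2 differed by 0.0054. Over all these lists without the 9 genes, 7 of 146 were higher and 4 lower (7.53%, against 7.0% of all genes), with a median of 0.011.

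**Figure D5:**
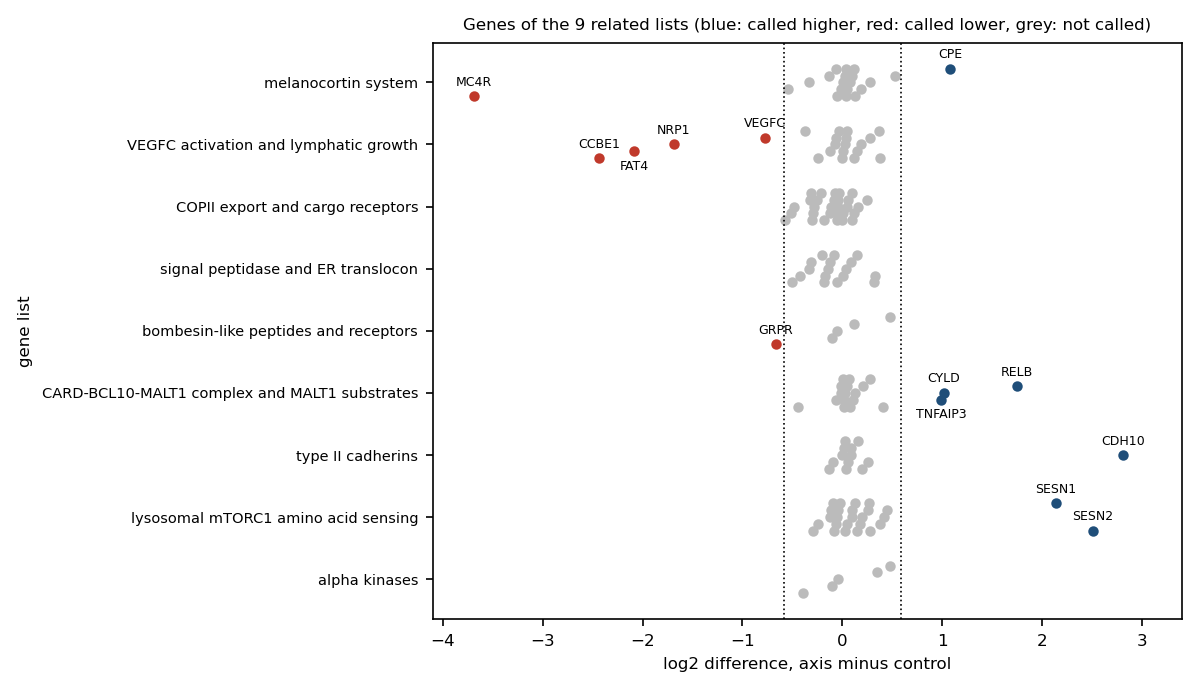
Log2 difference of the axis from controls for each measured gene of the 9 lists related to the members, with dotted lines at a 1.5-fold change. Most genes lie near 0 (grey), and between 0 and 4 genes of a list were called (red lower, blue higher), such as CPE (1.08) and MC4R (-3.69) in the melanocortin system.

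Markers of cell types were read beside these results. PNT1A controls had KRT18 at 6.83 and KRT8 at 6.01, the prostate secretory marker KLK3 at 3.96 and the leukocyte marker PTPRC at 2.47, on the log2 scale. The luminal marker CDH1 lay within the array medians of 4.07 to 4.22, and TMPRSS2 and the basal marker KRT14 lay below them. The mesenchymal markers FN1 (8.72), COL1A1 (8.70), CDH2 (7.92) and VIM (7.28) lay above both keratins in controls, as did the basal markers DST (8.68) and LAMB3 (7.57). The other mesenchymal markers lay below KRT18, down to DCN at 2.63. In the axis, 1 of 8 luminal markers was lower (KRT19, -1.10), 3 of 6 basal markers were lower (DST being lowest, -1.27), and 4 of 13 mesenchymal markers were lower (PDGFRB being lowest, -2.08), where 2.60% of all genes were called lower. No gene of these lists was called higher, but the basal markers ITGA6 (0.55, adjusted p = 1.44e-04) and LAMB3 (0.52, adjusted p = 9.74e-05 by limma) were higher below the fold threshold. The sum of the mesenchymal log2 values was 71.3 to 71.7 in controls and 63.6 to 64.5 in the axis. Such a sum is not a total level. The luminal sum was also lower in the axis (35.8 to 37.3, against 39.0 to 39.7 in controls), as was the basal sum (33.7 to 34.5, against 35.9). The leukocyte sum was higher in the axis (19.8 to 20.8, against 18.7 to 19.4), and the endothelial and neuronal sums overlapped. No marker of endothelium (9 genes) or neurons (8) was called, and 1 of 6 leukocyte markers was higher (ITGAM, 1.63) while PTPRC stayed between 2.34 and 2.75 on every array. The part of these shifts in the fall of MC4R and CCBE1 was not tested. The median log2 value of an array ranged from 4.07 to 4.22, and replicate arrays correlated at 0.992 or higher.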

How the data were processed

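Total RNA of PNT1A cells was hybridised to Affymetrix Human Gene arrays, 18 in 6 groups of 3. The authors used RMA in the affy package for background correction, normalisation and summary into probe sets (named in the submitters' processing notes with no version), and the deposited values are log2 intensities, which were taken as they are. The labels and the paper name different labelling kits. The sources used here give neither strips nor scan days, which leaves array batches unexamined. The number of arrays limits the precision.

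Of 53617 probe sets, 23870 had 1 symbol in the platform annotation, 1848 had several and 27899 had none; the latter kinds were not used. The probe set with the highest mean stood for a gene (631 of 22394 genes had several). Linear models came from limma 3.58.1 under R 4.3.3, with moderated variances (eBayes) and 1 mean per group over all 18 arrays, with Benjamini-Hochberg adjustment over all genes. A call needed both a fold change above 1.5 and an adjusted p under 0.05. Related gene lists and markers were described by counts and medians. Correlations used permutation tests with 100000 resamples. On data simulated for the axis comparison (22394 genes), the calls recovered 60 of the 60 genes with a true 4-fold change, 67 of the 70 at 2-fold and 45 of the 70 at 1.6-fold, with 1 false call.

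Named genes were the 9 members, PMAIP1 and the called genes of the window, the 3 highest and 3 lowest called genes of the wider span, up to 3 called genes per direction and list, the 5 genes most like MC4R and the 3 most like CCBE1, and the top and bottom marker genes; other names were chosen after their values were seen. The members and lists were chosen with earlier results of these data known. Alternatives covered the probe sets and summary used, normalisation, a filter on dim genes, fits to the compared groups alone, the replicate number as a block, the variance model, the thresholds and leaving out single arrays.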

Additional observations from a re-analysis of the deposited data

Results flagged for a closer look

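RNF152 and PMAIP1 stood out because the axis differed from the 4 peripheral locations by a limma test of that difference itself. The log2 difference was 0.61 for RNF152 (adjusted p = 1.84e-07) and 1.75 for PMAIP1 (adjusted p = 1.62e-11).

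SEC11C and RNF152 stood out because locations lay on opposite sides of the controls, with no overlap between the arrays of each location and the control arrays. SEC11C was higher in the axis by 0.33 and had a difference of -0.25 at the thyroid. RNF152 was higher in the axis by 0.45 and had differences of -0.13 at the lung and -0.34 at the brain. Some of the gaps were small. The lowest SEC11C value in the axis was 6.75, against a highest control of 6.72. The highest RNF152 value at the lung was 4.25, against a lowest control of 4.27. The other gaps were wider. No peripheral difference was called, and the share of all genes that meet this rule of no overlap was not counted. The contrast between single locations was not tested.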

How the results depend on the processing

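The direction of MC4R and CCBE1 in the axis was kept under every alternative run. Leaving out 1 array at a time, the log2 difference lay between -3.74 and -3.63 for MC4R and between -2.59 and -2.31 for CCBE1. The count of neighbours called against controls was 0 under all alternatives but the one with no fold threshold, where it was 1 (RNF152). Against the peripheral mean, the 1 called neighbour, RNF152, has a fold just above the threshold: the count was 0 with each array centred on its median, 0 with quantile normalisation (RNF152 at 0.56 in both), 0 at a fold above 2 and 2 with no fold threshold (RNF152 and SEC11C), and it lay between 0 and 1 when single arrays were left out, being 0 without axis replicate 3 (0.57). Members called at each peripheral location stayed at 0 throughout. The 155 genes of the related lists, MC4R and CCBE1 included, went from 13 called genes (7 higher and 6 lower) to 45 with no fold threshold (19 higher and 26 lower), where the shares of all genes were 11.2% higher and 9.18% lower.

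No pairing of the samples by the replicate numbers of the labels was detected. Deviations from the group means of same-numbered arrays correlated between -0.36 and 0.22 over 45 pairs, with 8 above 0.1. Over 90 pairs with different numbers the range was -0.26 to 0.26, with 25 above 0.1. Whether arrays shared an irradiation was not tested. With the replicate number as a block, the MC4R difference was -3.69 (SE 0.077), the neighbours called against controls were 0 and those called against the peripheral mean were 1, and no count changed. With 3 arrays a group, 45 of 70 simulated 1.6-fold changes were recovered. The simulation changed a far smaller share of genes than the 11.2% higher and 9.18% lower found with no fold threshold. Recovery in the data can therefore differ.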
